A study of Mus musculus with 2 samples.

Results

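The 8 genes described here are Klf2, Klf4, Klf6, Klf13, Nr4a1, Nr4a2, Btg1 and Btg2, transcription factors and growth inhibitors associated with cell quiescence. They were chosen by name out of 28206 measured features, with earlier results of these data known. Among those results, Klf2, Nr4a1 and Btg2 lead a cell cluster rich in immediate early genes, which respond to a stimulus within minutes. All 8 were found in both count tables. They were followed in the 3402 of 10809 droplet barcodes that held at least 500 unique molecular identifiers (UMIs, the tags that count single captured transcripts) and at most 20% mitochondrially encoded UMIs.

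The cells came from lineage-depleted mouse bone marrow (B220, Gr1, Ter119, CD4 and CD8) and were profiled with inDrops, a droplet method that counts polyadenylated transcripts. Reporter cells came from Mds1-GFP/+ Flt3-Cre mice and were sorted only as DAPI-GFP+. The reporter lies between loxP sites, so cells in which Cre, driven from Flt3, has acted lose it. They were mixed with long-term hematopoietic stem cells (LT-HSCs) from wild type mice, sorted as DAPI-Lin-cKit+Sca+CD48-CD150+. Both libraries, called aliquot 1 and aliquot 2, are drawn from 1 such pool, and the sources used here give no number, age or sex of the mice. No label separates the sorts within a library, so a cell is placed in the reporter class only when at least 1 GFP UMI was found in it.

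With 1 pool and no biological replicate, the classes compared below carry no test and no p-value. The kept cells numbered 1574 of 2147 barcodes in aliquot 1, at a median of 946.5 UMIs, and 1828 of 8662 in aliquot 2, at a median of 2071.5 UMIs. Of the kept barcodes, 55 sequences occurred in both aliquots. All intervals are at 95% and cover counting error only. Cells are not replicates and transcription is bursty, so the true error is larger. The LT-HSC label was checked against 10 markers, all of which were detected, led by Hlf at 731 UMIs per 1000000 UMIs (CPM) and Kit at 679 CPM. Procr, which encodes the stem cell surface receptor EPCR, was at 146 CPM, and Slamf1, which encodes the sorted CD150, at 19.9 CPM. Of other lineages, the lymphoid list summed to 35.1 CPM over 6 genes and the erythroid list to 72.9 CPM with Hba-a1 at 0. The stroma and endothelium list summed to 58.8 CPM, the monocyte and dendritic list to 142 CPM and the megakaryocyte list to 353 CPM. The granulocyte list summed to 2246 CPM over 11 genes, largely from few cells, since 43 cells held at least 3 of its UMIs after each cell was thinned at random to 500 UMIs.

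KLF proteins are zinc finger transcription factors that bind GC-rich and CACCC sequences, and several of them restrain cell division. NR4A proteins are orphan nuclear receptors whose genes are transcribed within minutes of a stimulus, without new protein synthesis, as are Fos and Jun, whose products pair to form the transcription factor AP-1. BTG proteins bind the CCR4-NOT complex, which shortens the poly(A) tails of messenger RNAs, and slow the cell cycle. In mice, blood stem cells are largely quiescent, and loss of Nr4a1 together with Nr4a3 is known to disturb that state.

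On GRCm38 (GENCODE vM21) all 8 are protein-coding genes on separate chromosomes. Klf2 spans chromosome 8 from 72319033 to 72321656 on the plus strand and Klf4 chromosome 4 from 55527143 to 55532466 on the minus strand. Klf6 spans chromosome 13 from 5861482 to 5870394 on the plus strand and Klf13 chromosome 7 from 63886351 to 63938915 on the minus strand. Nr4a1 spans chromosome 15 from 101254269 to 101274795 on the plus strand and Nr4a2 chromosome 2 from 57106830 to 57124003 on the minus strand. Btg1 spans chromosome 10 from 96617006 to 96622809 on the plus strand and Btg2 chromosome 1 from 134075170 to 134079120 on the minus strand.

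The start sites of these genes differ in a short motif that the CREB and ATF factors bind, the cyclic AMP response element (CRE, TGACGTCA). Windows of 300 bases (250 before to 50 after the start site, RefSeq, GRCm38.p6) were found for all 8 genes, Fos and Jun, and were searched on both strands. The 4 below are shown because Nr4a1 and Nr4a2 hold the most copies of the CRE core (TGACG or CGTCA), Btg2 alone of the 8 holds the full CRE, and Klf2 had the highest ratio in cells with Fos. Capitals mark the CRE or, outside a full CRE, its core.
Nr4a1: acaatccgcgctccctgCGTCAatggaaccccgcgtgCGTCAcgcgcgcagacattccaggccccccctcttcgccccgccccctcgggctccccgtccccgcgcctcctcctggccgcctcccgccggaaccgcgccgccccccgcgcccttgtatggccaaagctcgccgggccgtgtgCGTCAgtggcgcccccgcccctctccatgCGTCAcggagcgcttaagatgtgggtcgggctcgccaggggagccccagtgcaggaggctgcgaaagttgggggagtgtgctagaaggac
Nr4a2: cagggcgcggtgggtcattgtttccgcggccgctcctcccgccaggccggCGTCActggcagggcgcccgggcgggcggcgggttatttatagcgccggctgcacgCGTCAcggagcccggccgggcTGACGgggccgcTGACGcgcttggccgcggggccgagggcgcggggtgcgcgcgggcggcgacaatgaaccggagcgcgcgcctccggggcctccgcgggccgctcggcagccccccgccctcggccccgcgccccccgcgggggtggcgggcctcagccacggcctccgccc
Btg2: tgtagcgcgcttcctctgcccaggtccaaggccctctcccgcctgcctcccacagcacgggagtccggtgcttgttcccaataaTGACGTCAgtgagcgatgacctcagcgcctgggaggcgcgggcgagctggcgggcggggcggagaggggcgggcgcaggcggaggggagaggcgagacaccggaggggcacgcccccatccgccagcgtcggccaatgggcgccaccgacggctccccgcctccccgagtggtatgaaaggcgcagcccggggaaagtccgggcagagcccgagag
Klf2: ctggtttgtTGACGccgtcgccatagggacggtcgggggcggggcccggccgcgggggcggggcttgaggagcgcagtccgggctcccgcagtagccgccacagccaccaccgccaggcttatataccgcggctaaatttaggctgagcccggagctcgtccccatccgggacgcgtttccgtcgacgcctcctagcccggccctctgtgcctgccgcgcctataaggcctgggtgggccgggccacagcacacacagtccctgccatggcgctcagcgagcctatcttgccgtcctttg
These windows lie at chr15:101266596-101266895 on the plus strand, chr2:57123954-57124253 on the minus strand, chr1:134079106-134079405 on the minus strand and chr8:72318812-72319111 on the plus strand, in the order printed. The Btg2 window has its CRE starting 166 bases before the start site, and 1.79% of 32851 such windows in the genome hold one. Nr4a1 and Nr4a2 have 4 cores each, a number that 0.1005% of windows reach. Their windows are 72.3% and 81.7% G or C, and the windows counted for these shares were not matched for base content. Btg1 and Fos have 2 each, and 3.318% of windows hold 2 or more. Klf2, Klf4 and Klf13 have 1 core each, which 19.53% of windows hold, and neither Klf6 nor Jun has any. No window of these 10 genes holds the AP-1 motif TGANTCA, which 7.808% of all windows hold, or a CArG box, the motif of serum response factor, which 1.629% hold. Sites more than 250 bases before a start site were not searched, so a motif absent from a window can still lie near the gene. A match is a run of letters and not a measured binding site.

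Btg1 and Klf6 were the most abundant of the 8 transcripts and Klf4 the least. The CPM of all kept cells, with those of aliquot 1 and aliquot 2 after it, is given here gene by gene. inDrops tags a transcript once at its 3′ end, so no length scaling was applied. Among the KLF genes, Klf6, an early response factor, was at 131 CPM (127 and 132). Klf13, a factor first described as an activator of the chemokine gene Ccl5 in T cells, was at 52.8 CPM (59.1 and 50.2). Klf2, which keeps T cells quiescent in mice, was at 37.9 CPM (39.6 and 37.3). Klf4, known as a reprogramming factor and for its role in monocyte formation, was at 18.9 CPM (16.5 and 19.9). The aliquots stood close to each other for all 4 KLF genes, within overlapping intervals. Of the nuclear receptors, Nr4a1 (Nur77) was at 27.7 CPM (31.7 and 26.1) and Nr4a2 (Nurr1) at 25.9 CPM (25.6 and 26.1). Btg1 was at 139 CPM (154 and 133) and Btg2, also a target of p53, at 51.5 CPM (60.3 and 47.9). In the order of levels, the intervals of the neighbours Btg1 (130 to 149) and Klf6 (121 to 140) overlapped, as did those of Klf13 (46.9 to 59.1) and Btg2 (45.8 to 57.8). Klf2 (33.0 to 43.4) lay below both of those and just above Nr4a1 (23.5 to 32.4), whose interval overlapped that of Nr4a2 (21.9 to 30.5). Klf4 (15.5 to 22.8) overlapped Nr4a2 and not Nr4a1.

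**Figure D1:**
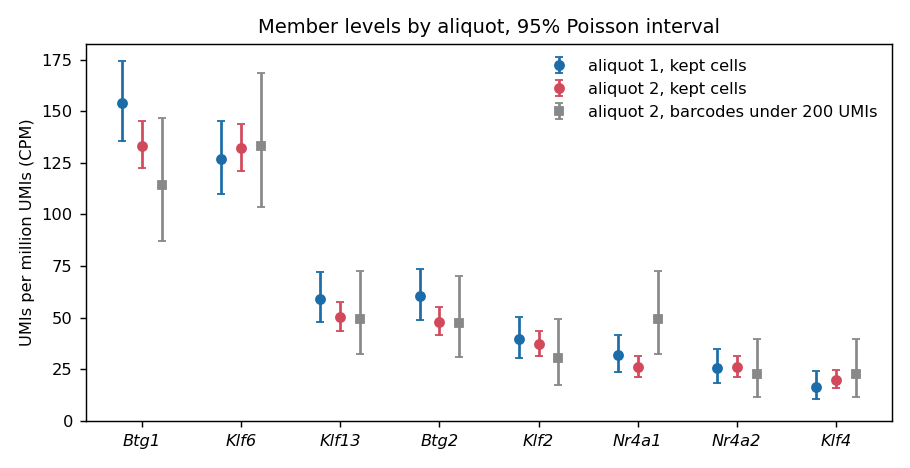
Level of each gene in CPM (vertical axis) in the kept cells of aliquot 1 and aliquot 2 and in the aliquot 2 barcodes under 200 UMIs, with 95% Poisson intervals as bars. The aliquots overlap for every gene, Btg1 and Klf6 lie highest, and Nr4a1 stands at 49.5 CPM in the barcodes under 200 UMIs, against 31.7 and 26.1 CPM in the cells of aliquots 1 and 2.

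Each transcript was found in few cells at this depth. Btg1 had a UMI in 16.5% of cells before thinning and in 6.73% (5.91 to 7.63) after thinning to 500 UMIs. Klf6 was found in 12.2% and 5.70%, Klf13 in 7.11% and 2.62%, and Btg2 in 5.61% and 2.41%. Klf2 was found in 3.97% and 1.71%, Nr4a1 in 3.53% and 1.24%, Nr4a2 in 2.94% and 1.21%, and Klf4 in 2.06% and 0.852%. After thinning, 649 cells (19.1%) held a UMI of any of the 8 genes, 89 of them of 2 genes and 13 of 3. Most counts came from many cells: the cell with most UMIs held between 1.01% of the gene's UMIs (Btg1) and 7.48% (Nr4a2). Barcodes with under 200 UMIs, 6492 in number, can hold free RNA rather than a cell. They carried the 8 genes at levels close to those of the cells, from 21.6 CPM for Klf4 and Nr4a2 to 142 CPM for Klf6, with Nr4a1 higher at 48.6 CPM (32.0 to 70.7). The share of free RNA among the UMIs of kept cells was not tested. Klf13 overlaps Gm27252 and E030018B13Rik on the opposite strand, and no source used here states whether counting used strand, so its counts can hold reads of those genes. The Btg1 copies Btg1-ps1 and Btg1-ps2 had 1 and 2 UMIs.

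Depth and mitochondrial share moved with several of the genes. In the deepest 679 cells (median 2972 UMIs) against the shallowest 681 (688 UMIs), Klf2 was at 19.4 against 64.5 CPM and Klf4 at 21.5 against 7.37 CPM. Klf6, Klf13 and Btg1 were also lower in the deepest cells, at 0.610, 0.670 and 0.614 times, while Nr4a1, Nr4a2 and Btg2 had intervals that held 1. In the 679 cells with the highest mitochondrial share against the 681 with the lowest, Nr4a2 was at 10.8 against 36.8 CPM, Klf4 at 14.1 against 32.7 CPM, Btg2 at 35.7 against 65.5 CPM and Klf13 at 41.1 against 66.3 CPM. Klf2 was higher there, at 45.4 against 25.4 CPM, as was Klf6 at 164 against 124 CPM, while Nr4a1 and Btg1 had intervals that held 1. The median depth of each class compared below is therefore given with it. Median mitochondrial shares were 5.04% with Fos and 5.01% without, and 5.07% with Jun and 4.99% without. They were 4.66% in S phase cells and 4.42% in G2/M cells, against 5.19% in their comparison cells. With Procr they were 5.43% against 4.97%, and in reporter cells 4.77% against 5.01%. The ratios below are not adjusted for either measure.

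Klf2, Klf4, Klf6, Nr4a1, Nr4a2, Btg1 and Btg2 were higher in cells with a Fos transcript, and Klf13 was not separated from its level in the other cells. After thinning, 316 cells held a Fos UMI and 3086 did not, at medians of 1427 and 1418 UMIs. Levels were summed from all counts of each class, with Fos and Jun left out of the totals, and a gene is called higher or lower here where the exact counting interval of the ratio does not hold 1. Of 8151 genes that reached a minimum of 10 UMIs in the smaller class, observed or expected, 7.23% were called higher and 5.68% lower, against 7 and 0 of the 8 genes. The median log2 ratio was 1.54 for the 8 genes and 0.00 for all genes. Klf4 reached the minimum only through its observed count, since 7.47 UMIs were expected.

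Among the KLF genes, Klf2 had 84 UMIs in 46 of the 316 cells. It was at 166 CPM in cells with Fos and 25.4 CPM in the others, a ratio of 6.53 (4.90 to 8.65), with 3.51 in aliquot 1 and 8.26 in aliquot 2. Klf4 was at 61.2 against 14.7 CPM, a ratio of 4.15 (2.64 to 6.38), with 4.53 and 4.02 in the aliquots. Klf6 was at 310 against 113 CPM, a ratio of 2.74 (2.28 to 3.28), with 4.06 and 2.31. Both aliquots thus had all 3 of these genes higher in the cells with Fos. Klf13 was at 67.1 against 51.4 CPM, a ratio of 1.31 (0.886 to 1.87) that was 0.836 in aliquot 1 and 1.54 in aliquot 2.

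The nuclear receptors were higher as well. Nr4a1 was at 98.7 CPM in cells with Fos and 20.8 CPM in the others, a ratio of 4.76 (3.33 to 6.72), with 7.28 and 3.80 in aliquots 1 and 2. Nr4a2 was at 61.2 against 22.5 CPM, a ratio of 2.72 (1.77 to 4.07), but in aliquot 1 alone it was at 1.79 (0.617 to 4.29) on 6 UMIs. Btg2, the BTG gene of the early response, was at 134 against 43.4 CPM, a ratio of 3.09 (2.32 to 4.07), with 5.62 and 2.13. Btg1 was at 205 against 133 CPM, a ratio of 1.54 (1.24 to 1.90), with 1.61 and 1.52. Within the pairs, Btg2 exceeded Btg1 and Nr4a1 exceeded Nr4a2 in ratio, the first pair with intervals that did not overlap. Over 20 other random thinnings the ratios ran from 4.78 to 6.76 for Klf2, 3.26 to 5.70 for Nr4a1 and 0.735 to 1.55 for Klf13, and 6 to 8 of the genes were called higher.

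**Figure D2:**
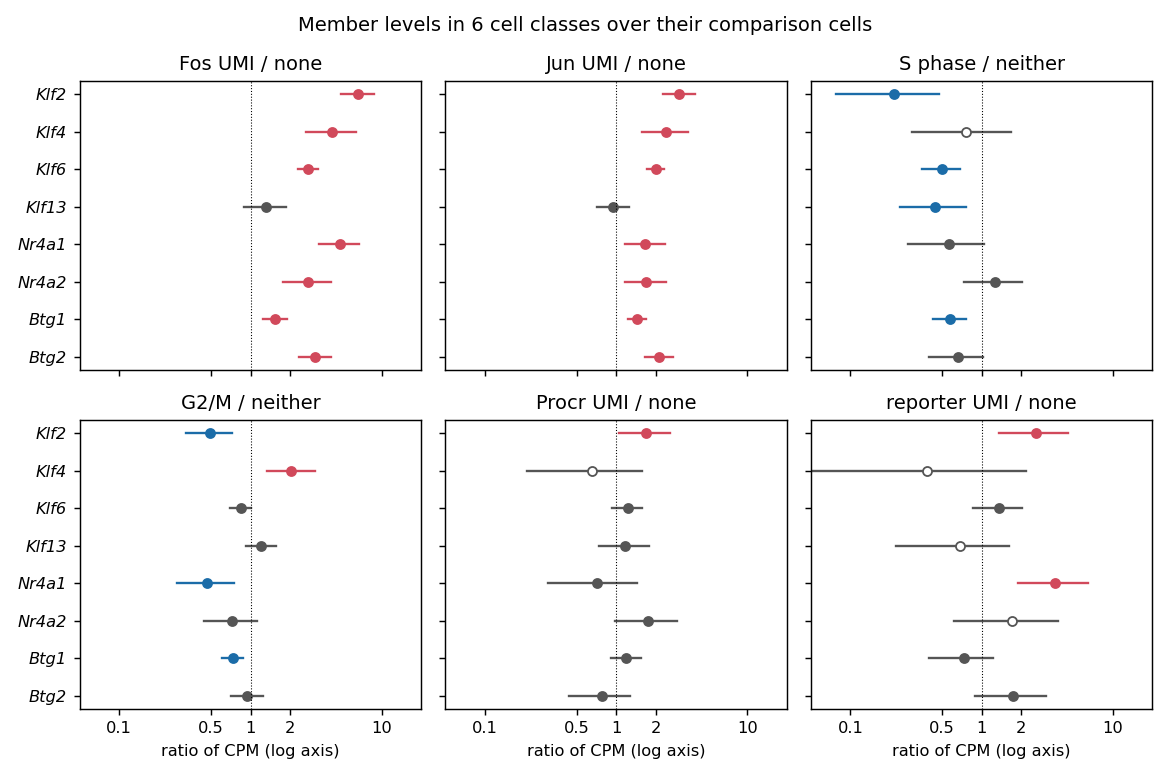
Ratio of CPM in each class to its comparison cells (horizontal log axis) for the 8 genes in 6 splits, with exact 95% intervals; red is called higher, blue lower, grey neither, and open points had under 10 UMIs observed and expected. With Fos 7 genes lie above 1, led by Klf2 at 6.53; in S phase cells Klf2 lies lowest at 0.215.

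The same 7 genes were called higher in cells with a Jun transcript, at smaller ratios, although the call of Nr4a2 depended on the thinning. A Jun UMI was found in 848 cells and not in 2554, at medians of 1284.5 and 1449 UMIs. Of 10628 genes, 8.09% were called higher and 6.86% lower, and the median log2 ratio was 0.88 for the 8 genes and 0.01 for all genes. Klf2 was at 78.0 CPM with Jun and 25.8 CPM without, a ratio of 3.02 (2.29 to 3.98), Klf4 at 2.39 (1.59 to 3.56) and Klf6 at 2.00 (1.72 to 2.33). Btg2 was at 2.14 times (1.67 to 2.72), Nr4a1 at 1.67 (1.18 to 2.35) and Btg1 at 1.44 (1.23 to 1.68). Nr4a2 was at 1.69 times (1.18 to 2.41) in the thinning used, but over 20 others its median was 1.05 and its range 0.611 to 1.62, and with at least 2 Jun UMIs it was at 0.748 times. Its call therefore depends on the thinning. Klf13 was at 50.7 against 53.4 CPM, a ratio of 0.949 (0.712 to 1.25).

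**Figure D3:**
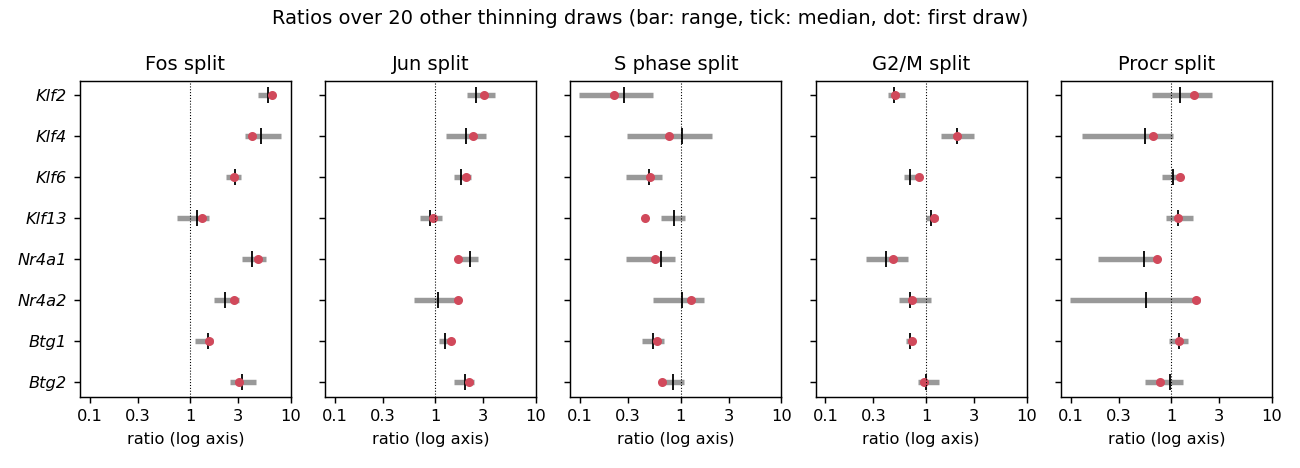
Ratios (horizontal log axis) over 20 other random thinnings for 5 splits; grey bars span the lowest to the highest draw, ticks mark the median and red dots the draw used in the text. For Fos all genes but Klf13 stay above 1 in every draw, while the Klf13 dot for S phase (0.445) lies outside its bar (0.634 to 1.11).

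Sorting the cells by both transcripts separated the genes further. Klf2 was at 224 CPM (165 to 298) in the 141 cells with Fos and Jun, 123 CPM in the 175 with Fos only, 49.7 CPM in the 707 with Jun only and 18.8 CPM (14.8 to 23.5) in the 2379 with neither. Neighbouring Klf2 intervals did not overlap, except for the pair of classes with Fos. Klf6 was at 411, 236, 173 and 96.6 CPM in those classes and Btg2 at 173, 106, 70.4 and 36.1 CPM, in the same order. Btg1 followed it too, at 220, 195, 175 and 122 CPM, and Nr4a2 at 70.1, 54.7, 31.6 and 20.01 CPM. For Btg1, Btg2 and Nr4a2, neighbouring intervals overlapped among the classes with Fos or Jun. So did those of Fos only and Jun only for Klf6, and those of Jun only and neither for Nr4a2. Klf4 stood apart, at 112 CPM (71.9 to 167) in cells with both against 23.9 CPM with Fos only, 19.0 with Jun only and 13.6 CPM with neither. Nr4a1 had its highest value with Fos only, 109 CPM (74.8 to 154), against 84.2 CPM (49.9 to 133) with both, 31.6 with Jun only and 17.8 CPM with neither, and its first 2 intervals overlapped. Klf13 was at 84.2, 54.7, 44.3 and 53.4 CPM, with overlapping intervals throughout.

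**Figure D4:**
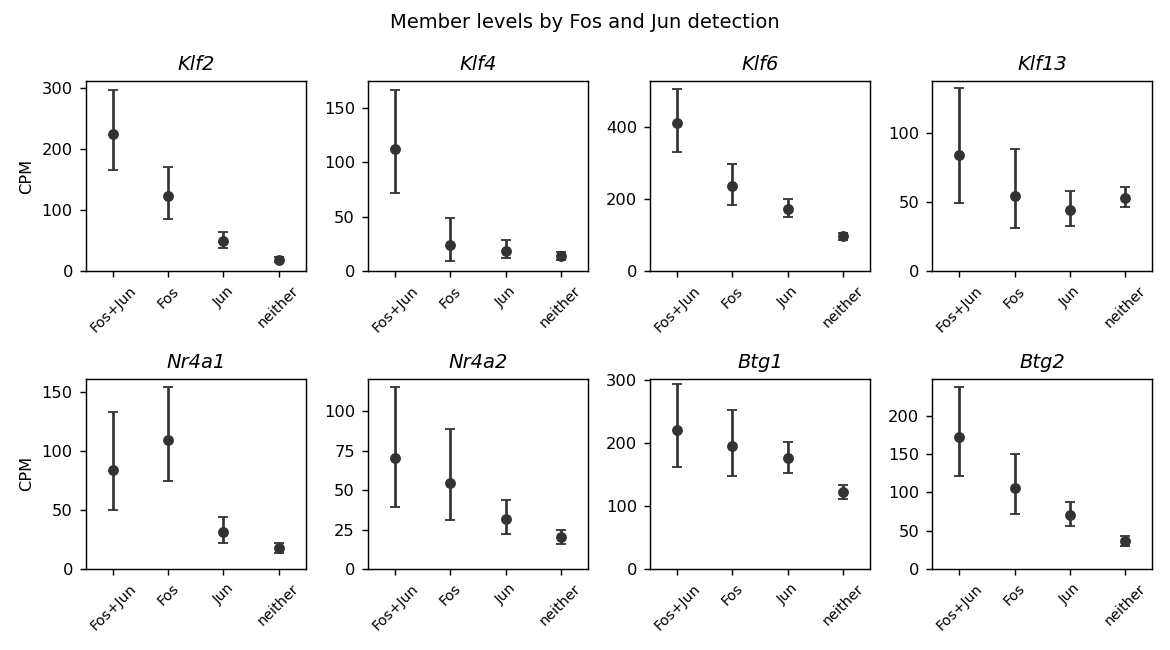
CPM (vertical axis, one scale per gene) in cells with Fos and Jun, Fos only, Jun only and neither after thinning, with 95% Poisson intervals. Klf2, Klf6 and Btg2 lie lower at each step from left to right, though some of their neighbouring intervals overlap. Klf4 is high in the first class alone (112 CPM), and Klf13 stays between 44.3 and 84.2 CPM.

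Cells were also ordered by the summed number of Fos and Jun UMIs left after thinning. Klf2 was at 18.8 CPM at 0 UMIs, 54.2 at 1, 94.2 at 2, 188 at 3 or 4 and 149 CPM (71.3 to 273) at 5 or more, where only 51 cells remained. Klf4 stood at 13.6, 20.2 and 15.7 CPM at 0, 1 and 2 UMIs, and at 71.5 CPM (40.9 to 116) at 3 or 4 and 164 CPM (81.6 to 293) at 5 or more. Btg2 stood at 36.1, 72.3, 60.2, 188 and 193 CPM over the same classes. Klf2 thus differed already at 1 UMI, while the interval of Klf4 left that of cells with none only from 3 UMIs. Median depth was 1445 UMIs in cells with none and 959 in those with 5 or more, and its part in these levels was not tested.

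Joint detection in single cells was then set against the number of cells expected from the separate shares. In thinned cells, within aliquot and quintile of depth, 21 cells held Klf2 and Fos where 5.66 were expected, 3.71 times as many, and 19 held Nr4a1 and Fos where 4.13 were expected, 4.60 times. Of 2938 genes with at least 10 such cells expected, 2.25% reached 1.5 times with Fos. Only Klf6 (43 cells against 18.4 expected, 2.34 times) and Btg1 (31 against 21.7, 1.43 times) had that many expected. With Jun, 0.948% of 6643 genes reached 1.5 times, and 7 of the 8 genes had 10 cells expected. Of these, Klf2 (29 against 15.0, 1.93 times) and Btg2 (35 against 20.8, 1.68 times) reached it, and the other 5 lay between 0.963 (Klf13) and 1.49 times (Nr4a2). To use all counts, the comparison was repeated, as a choice made after seeing the data, on unthinned cells within aliquot and decile of depth. Then 7 of 8 genes had an interval above 1 with Fos, against 1.43% of 9250 genes, and 6 of 8 with Jun, against 0.496% of 11291 genes. With Fos the values were 3.14 times for Klf4 (42 cells against 13.4 expected), 2.92 for Klf2 (68 against 23.3), 2.60 for Nr4a1 (56 against 21.5) and 2.00 for Btg2 (70 against 35.0). Klf6 was at 1.72, Nr4a2 at 1.70 and Btg1 at 1.31 times, and Klf13 at 0.916 (0.652 to 1.25). With Jun, Klf13 at 1.02 and Nr4a2 at 1.099 times had intervals that held 1, while the others lay between 1.13 (Btg1) and 1.59 (Klf4).

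Klf2, Klf4, Klf6, Nr4a1 and Btg2 were found together in many of their pairs, while Klf13 and Nr4a2 were seldom part of such pairs. In unthinned cells, 25 of the 28 pairs occurred more often than expected, 13 with intervals above 1 and 0 with intervals below. For comparison, when each of the 8 was set against all genes with at least 2 shared cells expected, 1.62% of 83439 such pairs had an interval above 1. The shares of such pairs above 1, or with an interval below 1, were not counted. The median over all genes lay between 0.970 times (with Klf2) and 1.009 times (with Klf13). With few cells expected, an interval below 1 could hardly be reached. The highest pair was Btg2 with Klf4, in 18 cells where 4.93 were expected, 3.65 times (2.16 to 5.77). Klf2 and Nr4a1 shared 18 cells against 5.09 expected, 3.54 times, Btg2 and Nr4a1 25 against 7.35, 3.40 times, and Btg2 and Klf2 25 against 7.42, 3.37 times. Klf2 and Klf4, close relatives, shared 9 cells against 2.81, 3.21 times (1.47 to 6.09). Nr4a1 and Nr4a2 shared 8 against 3.81, 2.10 times (0.907 to 4.14), and Btg1 and Btg2 49 against 35.1, 1.40 times (1.03 to 1.85). Klf6 and Btg1, the most abundant pair, shared 76 cells against 74.6, no pair with Klf13 had an interval above 1, and of the pairs with Nr4a2 only that with Btg2 did (2.01 times, 1.07 to 3.43). Nr4a2 with Klf2 was at 0.955 times (0.260 to 2.44).

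The genes whose levels ran most like each of the 8 across the 3402 cells were taken from 5099 genes found in at least 5% of cells, by Pearson's r of log2(1 + counts per 10000 UMIs). These cells share libraries and detection limits, the values are low, and they serve as a description. Klf2, Klf4, Nr4a1 and Nr4a2 lay under 5% of cells and so could not be listed for one another. For how many other genes Fos is among the closest 3 was not counted. Fos was among the closest 3 for 7 of the 8, with r of 0.19 for Klf2, 0.18 for Nr4a1, 0.15 for Klf4, Klf6 and Btg2, 0.08 for Btg1 and 0.07 for Nr4a2. Zfp36, which encodes a protein that destabilises AU-rich messenger RNAs, was among the closest 3 for Klf2, Klf6, Nr4a1 and Btg2, and the early response factor Egr1 for Nr4a1 and Btg2. Dusp1, a phosphatase of MAP kinases, completed the set for Klf2 and the AP-1 gene Jund that for Klf6. Klf4 ran closest with Lgals1 (galectin-1), at 0.17, and, after Fos, with S100a6. Klf13 ran closest with the lysozyme gene Lyz2 at 0.10, S100a6 and Nagpa, and Btg1 with Lyz2 at 0.09 and, after Fos, Naip2. Nr4a2 ran closest with Cpsf7 and, after Fos, with Rbm15b, at 0.08 and 0.07.

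Immediate early genes as a list were higher in cells with Fos, while fewer of the other family members and quiescence genes were. Of 13 other KLF genes 6 could be compared: Klf9 at 1.91 times (1.33 to 2.69) and Klf11 at 1.95 (1.34 to 2.78) were higher, while Klf10 at 1.21 and Klf3 at 1.09 had intervals that held 1. Of 5 other NR4A, BTG and TOB genes, Tob1 was higher at 1.63 times (1.08 to 2.39) and Tob2 was at 0.887 (0.671 to 1.15). All 12 AP-1 and other immediate early genes that could be compared were higher, with a median log2 ratio of 1.09, among them Zfp36 at 3.43 times, Dusp1 at 3.38 and Ier2 at 2.15. Fosb and Socs3, with 30 and 19 UMIs in cells with Fos, reached the minimum only through their observed counts. They had to be higher to be compared, so this count of 12 and its median are a description. Of 12 other quiescence genes 2 were higher, Txnip at 1.11 times and Tsc22d3 at 1.38, and Hlf was at 1.08 (0.967 to 1.19). Of 10 heat shock genes 2 were higher, at a median log2 ratio of 0.09. Lower calls were found for 13 of 36 S phase genes and 15 of 47 G2/M genes, and the granulocyte list summed to 1449 CPM with Fos and 2327 CPM without. Procr was at 146 CPM in both classes, a ratio of 0.998 (0.775 to 1.27). Among cells below both cell cycle thresholds (defined next), Klf2 was at 5.97, Nr4a1 at 4.71, Btg2 at 3.41 and Klf4 at 2.83 times in cells with Fos.

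In S phase cells Klf2, Klf6 and Btg1 were lower. Cells were placed in S phase when at least 4 UMIs of 43 S phase genes remained after thinning and fewer than 4 of 54 G2/M genes did, which gave 295 cells, at a median of 1621 UMIs, against 2494 cells below both thresholds, at 1273 UMIs. The cut is a range and not a cell type: 164 cells lay at the S phase threshold and 315 just under it. The median mitochondrial share was 4.66% in S phase cells and 5.19% in the comparison cells. Klf2, Klf6, Klf13 and Btg1 were also lower in the deepest cells, and Klf2 and Klf6 in those with the lowest mitochondrial share. The part of depth and mitochondrial share in the S phase values was not tested. Of 8531 genes 13.7% were called lower and 15.1% higher, against 4 and 0 of the 7 genes that could be compared. The median log2 ratio of those 7 was −0.84, against −0.02 for all genes. Klf2 was at 10.3 CPM in S phase cells and 47.7 CPM in the comparison cells, a ratio of 0.215 (0.0779 to 0.477) on 6 UMIs, with 0.457 in aliquot 1 and 0.104 in aliquot 2. Klf6 was at 71.8 against 144 CPM, 0.497 times (0.354 to 0.681), and Btg1 at 90.6 against 157 CPM, 0.576 times (0.427 to 0.764). Both aliquots had the 3 genes lower, but in aliquot 1 alone the intervals of Klf2 and Klf6 held 1.

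The other genes were less clear in S phase cells. Klf13 was at 23.9 against 53.8 CPM, 0.445 times (0.239 to 0.764), but 20 other thinnings gave 0.634 to 1.11, a stricter class held by at most 10% of cells gave 1.04, and cells with at least 1000 UMIs gave 0.977, so its call depends on the draw. Nr4a1 was at 0.560 times (0.273 to 1.04), Btg2 at 0.657 (0.398 to 1.03) and Nr4a2 at 1.26 (0.738 to 2.05). Klf4 had 7 UMIs against 9.20 expected. Fos and Jun themselves were lower in S phase cells, at 0.561 times (0.452 to 0.691) and 0.655 times (0.583 to 0.735), and Procr was at 0.229. In cells with neither Fos nor Jun after thinning, Klf2 was at 0.502 times (0.157 to 1.24), so its call was lost there. Of other quiescence genes 10 of 12 were lower in S phase cells, among them Txnip at 0.432 times and Hlf at 0.504. Of other KLF genes 2 of 6 were lower, Klf9 at 0.282 times on 9 UMIs and Klf3 at 0.262 on 6 UMIs. The others had intervals that held 1, among them Klf10 at 0.868 and Klf11 at 0.734 times. Cell type markers moved with the class: 7 of 9 LT-HSC markers were lower, at a summed 1729 CPM in S phase cells and 2940 CPM in the comparison cells, and 3 of 4 megakaryocyte markers were higher, at 506 against 268 CPM. The granulocyte list summed to 499 against 987 CPM, and the part of these markers in the values above was not tested.

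In G2/M cells Klf2 was lower, while Klf4 was higher in aliquot 2 only. The class held 613 cells with at least 4 UMIs of the G2/M list, 187 of which also passed the S phase threshold. Its median depth was 1740 UMIs, against 1273 in the comparison cells, and its median mitochondrial share 4.42% against 5.19%. Klf2 and Klf4 also moved with depth and mitochondrial share, and the part of these in the values below was not tested. Of 10519 genes 17.5% were called higher and 17.9% lower, against 1 and 3 of the 8 genes, so the single higher call is near the share over all genes. The median log2 ratio was −0.35 for the 8 genes and −0.04 for all genes. Klf2 was at 23.5 CPM in G2/M cells and 47.7 CPM in the comparison cells, 0.492 times (0.322 to 0.727). Nr4a1 was at 15.6 against 33.6 CPM, 0.466 times (0.275 to 0.750), and Btg1 at 115 against 157 CPM, 0.731 times (0.606 to 0.877). Klf6 at 0.845, Btg2 at 0.945, Nr4a2 at 0.719 and Klf13 at 1.21 times had intervals that held 1. For Klf6 the thinning used lay above all 20 others, which ran from 0.606 to 0.828 with a median of 0.698, and over those thinnings 3 to 5 of the 8 genes were called lower. Klf4 was at 32.1 against 15.7 CPM, 2.04 times (1.34 to 3.09), but only through aliquot 2, where it was at 2.81 times, whereas aliquot 1 gave 0.671 times (0.196 to 1.86). In the class held by at most 10% of cells Klf4 was at 1.20 times (0.626 to 2.14).

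Markers of several cell types moved with the G2/M class. The granulocyte list summed to 6832 CPM in G2/M cells and 987 CPM in the comparison cells, with 10 of 11 genes higher. Erythroid markers were higher for 4 of 4 genes compared, at 156 against 47.4 CPM, and megakaryocyte markers for 2 of 4, at 545 against 268 CPM. Of the erythroid genes, Klf1 had 23 UMIs in G2/M cells and 7 in the comparison cells. It reached the minimum only through its observed count, so no result is read from the 4 of 4. LT-HSC markers were lower for 9 of 10, at 1632 against 2940 CPM. The part of the erythroid, megakaryocyte and LT-HSC markers in the values above was not tested. The 43 cells with at least 3 granulocyte UMIs, a set chosen after seeing the data, included 23 of the G2/M class. In those 43 cells Klf4 was at 65.7 CPM, against 18.0 CPM in all other cells, 3.65 times (1.43 to 7.80), on 7 UMIs in 3 cells. Klf6 was at 281 against 128 CPM there, 2.20 times (1.48 to 3.17). Nr4a1 and Nr4a2 had 0 UMIs in them where 3.01 and 2.82 were expected, an exact interval of up to 34.6 CPM, against 28.2 and 26.4 CPM in all other cells. A difference was therefore not detectable for them, and Klf2 had 1 where 4.10 were expected. Without these 43 cells Klf4 was at 2.40 times (1.55 to 3.68) in G2/M cells and at 4.54 times (2.87 to 7.03) in cells with Fos, so neither value was smaller without them.

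Cells with a Procr transcript gave 1 call among the 8 genes, Klf2, and it rested on a single cell. A Procr UMI was found in 274 cells and not in 3128, at medians of 1210.5 and 1430 UMIs. Of 7314 genes 10.7% were called higher and 9.63% lower, against 1 and 0 of the 7 genes that could be compared, with a median log2 ratio of 0.26 against 0.02 for all genes. The call was Klf2, at 60.9 CPM with Procr and 36.2 CPM without, 1.68 times (1.05 to 2.58). Without the cell holding most Klf2 UMIs the ratio was 0.985 (0.529 to 1.69), and over 20 other thinnings it ran from 0.637 to 2.50. Klf6 was at 1.22 times (0.927 to 1.59), Btg1 at 1.20 (0.915 to 1.55), Klf13 at 1.17 (0.735 to 1.77), Btg2 at 0.775 (0.437 to 1.28) and Nr4a1 at 0.718 (0.304 to 1.45). Over the 20 other thinnings Nr4a1 ran from 0.188 to 0.757, below 1 in each of them, although its interval held 1 in the thinning used. Nr4a2 was at 1.75 times (0.988 to 2.91), or 0.620 without its richest cell. It reached the minimum, and so entered the median above, only through its observed count, since 9.72 UMIs were expected. The Procr class did differ in other genes: 6 of 12 other quiescence genes were higher, among them Txnip at 1.59 and Hlf at 1.63 times. Lower calls were found for 24 of 34 S phase genes. Of 6 other KLF genes, Klf9 was higher at 2.01 times, Klf16 was lower at 0.384 (0.123 to 0.914) and the others had intervals that held 1. Tob1 was higher at 2.06 times, while Tob2 was at 1.001 (0.742 to 1.32).

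Nr4a1 and Klf2 each had 13 UMIs in reporter cells, where 3.57 and 5.004 were expected from the other cells. A GFP UMI was found in 71 kept cells, 23 in aliquot 1 and 48 in aliquot 2, where the labels state 46 GFP cells after processing, by a filter that no source used here describes. Their median depth was 1702 UMIs, against 1412 in the 3331 other cells. Sort, mouse line and reporter go together and cannot be told apart. Of 3440 genes 12% were called higher and 5.7% lower, and only 5 of the 8 genes reached the minimum, 3 of them (Klf2, Nr4a1 and Btg2) through their observed counts alone. Nr4a1 and Klf2 had to differ to reach that minimum, so their values are a description and no count of calls is read from them. Nr4a1 was at 94.9 CPM in reporter cells and 26.0 CPM in other cells, 3.64 times (1.89 to 6.43), from 13 UMIs in 9 cells, with 4.21 in aliquot 1 and 3.63 in aliquot 2. Klf2 was at 94.9 against 36.5 CPM, 2.60 times (1.36 to 4.54), from 13 UMIs in 11 cells, with 5.73 and 1.94. Without the cell richest in it Klf2 was at 2.05 times (0.966 to 3.84) and Nr4a1 at 2.87 times (1.35 to 5.43). Klf6 at 1.35, Btg2 at 1.73, Nr4a2 at 1.72, Btg1 at 0.728 and Klf13 at 0.687 times had intervals that held 1, and Klf4 had 1 UMI where 2.63 were expected. Megakaryocyte markers summed to 664 CPM in reporter cells and 345 CPM in other cells, with 2 of 3 higher, and granulocyte markers to 248 against 2296 CPM, with 6 of 7 lower. LT-HSC markers summed to 2401 against 2495 CPM. Without the 43 granulocyte-marker cells Nr4a1 was at 3.57 and Klf2 at 2.56 times, and the part of the megakaryocyte markers was not tested.

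Most of the Nr4a1 and Klf2 counts of reporter cells lay in those with Fos. Fos was at 591 CPM in reporter cells and 252 CPM in other cells, 2.35 times. In the 17 reporter cells with a Fos UMI before thinning, Klf2 had 10 UMIs in 8 cells, Nr4a1 10 in 6 and Btg2 9 in 4. In the 54 without, each had 3 UMIs in 3 cells, at like depth (medians of 1818 and 1672 UMIs). Among cells with neither Fos nor Jun after thinning, 45 with the reporter and 2334 without, Nr4a1 was at 1.32 times (0.157 to 4.96) and Klf2 at 2.57 times (0.683 to 6.88), both with intervals that held 1 on these few counts. The 56 reporter cells below both cell cycle thresholds had Nr4a1 at 3.88 times (1.94 to 7.04) and Klf2 at 2.65 times (1.34 to 4.75).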

How the data were processed

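The authors deposited raw UMI counts per gene and droplet barcode for 2 aliquots of 1 pool of cells, whole numbers with no normalization. Per the submitters' processing notes, the build was GRCm38 and the tools were RSEM 1.3.0, Bowtie 1.1.1 and SAMtools 1.3.1, with no settings. The reporter is the feature GFP, which the authors counted against its cassette per the labels, and it was left out of all totals.

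The aliquots held 1801787 and 4726601 UMIs, of which 1640734 and 4027333 were in kept cells. Counts were summed over cell classes and scaled to CPM. Levels have exact Poisson intervals, ratios exact conditional binomial intervals and shares Clopper-Pearson intervals. Classes were set on counts thinned to 500 UMIs per cell, except the reporter class. Cell cycle thresholds were the smallest number of list UMIs that at most 20% of cells reach. The ratio step was checked on simulated counts. Doublets were not called, and the deepest 5% of cells were left out as an alternative. Positions and symbols were taken from GENCODE vM21 and promoters from RefSeq. Software was scipy 1.17.1, numpy 2.4.6, matplotlib 3.10.9 and pandas 2.3.3 under Python 3.11.15.

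The 8 genes and all lists were chosen with earlier results of these data known. Among these, Klf2, Nr4a1 and Btg2 lead a cell cluster rich in immediate early genes. Their link with Fos is therefore not independent support for that cluster. The counts of the 8 genes called with Fos and Jun, and of their pairs, describe a list so chosen. Genes named are the 8 genes, those that define classes, the 4 members of each other list with most UMIs that reached the minimum, and per gene the 3 most alike across cells; 1 gene that the rule would name is not reported here. Marker genes and single lists beyond these, and Tsc22d3, Fosb, Socs3 and Klf16, were named after their values were seen.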

Additional observations from a re-analysis of the deposited data

How the results depend on the processing

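No paired analysis was possible because the samples are 2 aliquots of 1 pool and form 1 group. With Fos, 7 genes were called under the settings tried, except 6 with levels from thinned counts and 5 to 7 in single aliquots. With Jun the count ran from 5 to 7. The 4 calls for S phase became 2 with levels from thinned counts and 2 to 5 in single aliquots. The 4 for G2/M became 2 with levels from thinned counts, 2 in the class of at most 10% of cells and 3 to 4 in single aliquots. The 1 call with Procr became 3 at a minimum of 1000 UMIs, 0 at a mitochondrial limit of 10%, 0 with levels from thinned counts, 3 with unthinned classes, 0 without the richest cell, 2 in cells with neither Fos nor Jun and 0 to 2 in single aliquots. With the reporter, Klf2 and Nr4a1 had to differ to reach the minimum, so no result is read from their 2 calls. As a description, these became 1 at 1000 UMIs, 0 with levels from thinned counts and 1 without the richest cell. They became 0 with at least 2 reporter UMIs, 0 in cells with neither Fos nor Jun and 0 to 1 in single aliquots. Thinned levels use fewer counts, as do single aliquots and smaller classes; the cause of the other changes was not tested. The comparisons within cells lacking Fos and Jun, or below both cell cycle thresholds, were chosen after seeing the data.

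With all genes of at least 1 UMI in place of at least 10, the share of genes 1.5-fold apart with an interval off 1 was 4.01% for Fos in place of 8.27%, 3.68% for Jun (6.51%), 9.42% for S phase (20.2%), 11.4% for G2/M (21.8%), 6.13% for Procr (14.5%) and 4.57% for the reporter (15.2%). Of 664 ratios of single genes under alternatives, 589 stayed within their counting interval, 71 moved beyond it and 4 called values crossed 1: Nr4a2 with at least 2 Jun UMIs (0.748), Klf13 in the stricter S phase class (1.04), Klf4 in G2/M cells of single aliquots (0.671 to 2.81) and Klf2 with Procr without its richest cell (0.985). Scaling by the median of ratios moved no call; its largest shift was 0.09 on the log2 scale, for the reporter. The reporter class, with 71 cells, left 5 of the 8 genes measurable.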
